A study of Mus musculus with 9 samples.

Results

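The 3 libraries that carry the number 1 in their treatment group were compared with the 6 libraries numbered 2 or 3, across all genes and with treatment group as a covariate. They are 3 of 9 bulk RNA-seq libraries made from AML12, a line of mouse hepatocytes derived from a mouse that carried a transforming growth factor alpha transgene. Each treatment group supplied 1 library numbered 1 and 2 others: OCY-EV+ANTA cells received vesicles from aged osteocytes after 30 min of incubation with antagomir-483-5p, OCY-EV+ANTA-NC cells received such vesicles after 30 min with antagomir-NC, and Veh cells received phosphate-buffered saline. The vesicles were given at 2 µg/ml, all cells were under free fatty acid (FFA) conditions, and no group received vesicles alone. Antagomirs are synthetic oligonucleotides that inhibit a microRNA by pairing with it. Whether the incubation was followed by ultracentrifugation or by ultrafiltration differs between the labels. Nothing in the labels says what the number marks (a run, a day, a dish), nor whether libraries stem from separate cultures. The p-values therefore cover only how far these libraries spread, and that spread may be technical. The comparison was chosen after a principal component of these data had placed the libraries numbered 1 apart. The gene lists were chosen with earlier results of these data known. The p-values and list shares below therefore describe these 9 libraries and are not independent evidence of a difference. In each triplet of values below the order is OCY-EV+ANTA, OCY-EV+ANTA-NC and Veh.

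Immediate early genes, such as Egr1 and Fos, are transcribed within minutes of a growth factor, serum or stress signal without new protein synthesis, and their short-lived mRNAs decay soon after the signal ends. Replication-dependent histone genes sit in clusters, mostly lack introns and end their mRNAs in a stem-loop in place of a poly(A) tail during S phase, while replacement histones such as H3f3b come from ordinary polyadenylated mRNAs. Genes of G2 and mitosis, among them the cyclin B genes, are transcribed late in the cell cycle by promoters that often hold CCAAT boxes. In bulk RNA, more cells in a phase and more RNA per cell cannot be told apart.

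At an adjusted p under 0.05, 327 of 11685 genes tested differed between the libraries numbered 1 and those numbered 2 and 3 (2.8%), of which 103 were higher (0.881%) and 224 lower (1.92%) in the libraries numbered 1. Adjusted p stands throughout for edgeR's quasi-likelihood test with Benjamini-Hochberg adjustment over all genes tested. The lower genes held the large changes: 18 were lower by at least 2-fold and none was higher by that much, and the median log2 fold change was −0.18 among the lower genes and 0.20 among the higher ones. For 291 of the 327 genes the library numbered 1 lay outside both others in every treatment group, an order that 15% of all genes tested had. The order is read from the same values as the calls, so a high share among called genes follows in part from the call. The programmes that moved were immediate early genes and histone genes, both lower, and genes of G2 and mitosis, higher. The number of calls depended on single libraries: 83 genes passed without OCY-EV+ANTA-NC 1, 137 without OCY-EV+ANTA 1 and 376 without Veh 1. Each treatment group holds 1 library numbered 1, so a test of whether its change differs between groups has little power. Few calls in that test do not show that the change was equal. The change of the library numbered 1 differed between treatment groups in 5 of 11879 genes (0.0421%) by the interaction term, none of them in these programmes.

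Below are promoters of genes whose changes are described next, the 250 bases upstream of the annotated start in RefSeq on GRCm38.p6, written 5′ to 3′ on the gene's strand. They show sequence from members of the 3 programmes, and the capitals mark letters that a search found. The gene coordinates given further below follow GENCODE M21, whose starts can differ from those in RefSeq. The windows of Zfp36, Dusp1 and Hist1h1d lie within those coordinates, and that of Ccnb1 lies partly within them. Whether these letters bear on the changes was not tested. For Zfp36 the capitals are a CArG box (the serum response element core), and for Dusp1 and Btg2 a cyclic AMP response element with the letters TGACGTCA. In both linker histone genes they mark an H1 box (AAACACA) and a CCAAT box, and in Top2a and Ccnb1 the CCAAT boxes, written ATTGG where the match is on the other strand.
Zfp36, chr7:28379229-28379478, minus strand: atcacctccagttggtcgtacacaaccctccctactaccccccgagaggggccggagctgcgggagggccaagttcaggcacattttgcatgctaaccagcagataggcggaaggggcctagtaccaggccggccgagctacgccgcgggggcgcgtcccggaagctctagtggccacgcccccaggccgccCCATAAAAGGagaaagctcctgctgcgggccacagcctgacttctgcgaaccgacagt
Dusp1, chr17:26508473-26508722, minus strand: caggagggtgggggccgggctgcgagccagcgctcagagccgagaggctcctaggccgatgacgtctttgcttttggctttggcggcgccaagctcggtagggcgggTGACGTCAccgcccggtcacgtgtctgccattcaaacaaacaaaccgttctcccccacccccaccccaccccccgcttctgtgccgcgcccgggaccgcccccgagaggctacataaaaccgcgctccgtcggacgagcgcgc
Btg2, chr1:134079156-134079405, minus strand: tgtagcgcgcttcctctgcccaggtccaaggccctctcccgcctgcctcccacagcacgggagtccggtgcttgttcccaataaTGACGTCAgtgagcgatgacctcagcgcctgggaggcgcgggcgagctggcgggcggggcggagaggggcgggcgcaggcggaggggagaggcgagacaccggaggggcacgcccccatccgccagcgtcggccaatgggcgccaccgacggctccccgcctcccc
Hist1h1d, chr13:23554782-23555031, plus strand: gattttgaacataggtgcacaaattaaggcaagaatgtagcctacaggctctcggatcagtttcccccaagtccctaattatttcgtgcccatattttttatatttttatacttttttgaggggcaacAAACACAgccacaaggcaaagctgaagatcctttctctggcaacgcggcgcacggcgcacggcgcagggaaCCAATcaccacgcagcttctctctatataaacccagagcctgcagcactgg
Hist1h1c, chr13:23738557-23738806, plus strand: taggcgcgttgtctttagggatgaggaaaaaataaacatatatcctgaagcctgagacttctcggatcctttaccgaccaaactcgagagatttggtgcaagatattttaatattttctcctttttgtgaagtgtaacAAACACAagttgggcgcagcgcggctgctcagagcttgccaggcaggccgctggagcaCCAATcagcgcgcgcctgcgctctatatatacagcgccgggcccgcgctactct
Top2a, chr11:99024190-99024439, minus strand: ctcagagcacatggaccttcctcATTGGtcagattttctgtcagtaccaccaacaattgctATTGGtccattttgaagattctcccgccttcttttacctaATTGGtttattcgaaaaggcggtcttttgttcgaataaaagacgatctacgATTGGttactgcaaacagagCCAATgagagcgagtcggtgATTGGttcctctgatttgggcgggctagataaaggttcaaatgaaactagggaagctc
Ccnb1, chr13:100786487-100786736, minus strand: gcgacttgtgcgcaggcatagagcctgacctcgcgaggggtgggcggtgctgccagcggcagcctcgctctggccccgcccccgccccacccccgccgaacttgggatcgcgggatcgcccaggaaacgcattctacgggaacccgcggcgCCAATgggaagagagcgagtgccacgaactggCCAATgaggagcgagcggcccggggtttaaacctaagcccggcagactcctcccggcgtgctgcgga
The CArG box of Zfp36 begins 58 bases before the start, the cyclic AMP response element of Dusp1 143 bases and that of Btg2 166 bases before it. Hist1h1d and Hist1h1c share one layout, with the H1 box 122 and 112 bases and the CCAAT box 51 and 54 bases before the start. Top2a has 6 CCAAT boxes in its window and Ccnb1 has 2.

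Both strands were searched in the windows of all 9327 tested genes that the RefSeq table holds. Of the 13 G2 and mitosis genes that were higher and had a window, 11 held a CCAAT box (84.6%), against 37.3% of all windows. Of 17 genes of the histone clusters with a window, 12 held a CCAAT box (70.6%) and 4 an H1 box (23.5%), against 3.7% of all windows for the H1 box. Those 4 were the linker histone genes Hist1h1b, Hist1h1c, Hist1h1d and Hist1h1e. Of the 12 immediate early genes that were lower, 8 had a window, and the CArG box was found in 1 of them and the cyclic AMP response element in 2, against 1.2% and 2.89% of all windows. The CCAAT box was found in 4 of those 8 windows (50%). Over all called genes with a window, it stood in 42.9% of the lower and 45.8% of the higher ones. There the CArG box stood in 1.18% and 2.41%, the cyclic AMP response element in 4.71% and 2.41%, and the H1 box in 4.71% and 7.23%. These are matches of letters, which may be shared with other motifs, and a window without them says nothing of the factor.

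Immediate early and serum response genes were lower in the libraries numbered 1. Of the 32 genes on this list 31 were tested, 12 were lower and 1 was higher (41.9% called, against 2.8% of all genes), and the median log2 fold change of the 31 was −0.20, against 0.00080 for all genes. The summed level of the list was 1931 to 1966 CPM (counts scaled to a common library total) in the libraries numbered 1, against 2275 to 3068 CPM in those numbered 2 and 3. In 17 of the 31 the library numbered 1 was the lowest in every treatment group, an order that 7.79% of all genes tested had. Without a single library, between 10 (without OCY-EV+ANTA-NC 1) and 14 members were lower.

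The deepest fall was that of Egr1, a zinc finger transcription factor induced by serum and growth factors. It read 4.54, 11.3 and 6.69 CPM in the libraries numbered 1, against 244, 387 and 256 CPM in those numbered 2 and 96.4, 179.7 and 197 CPM in those numbered 3. Every library numbered 1 lay far below all 6 others. The level was 30.2-fold lower (log2 fold change −4.92, SE 0.242, adjusted p = 2.06e-19) and stayed past the threshold without each of the 9 libraries in turn.

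Fos (chr12:85473890-85477273, plus strand), which pairs with Jun proteins in the AP-1 transcription factor, had 9.77, 15.8 and 13.1 CPM in the libraries numbered 1, against 83.5, 121 and 89.2 CPM in those numbered 2 and 33.4, 61.5 and 70.2 CPM in those numbered 3. Its log2 fold change was −2.57 (SE 0.182, adjusted p = 5.56e-14). Ier2 (chr8:84661331-84662852, minus strand), a nuclear immediate early protein, had 18.1, 22.7 and 20.1 CPM in the libraries numbered 1, against 89.04, 114 and 92.4 CPM in those numbered 2 and 41.8, 64.6 and 80.8 CPM in those numbered 3. Neither gene overlapped between the libraries numbered 1 and the others, and for both the libraries numbered 1 lay close together while the other 6 spread over more than a doubling. The log2 fold change of Ier2 was −1.98 (SE 0.142, adjusted p = 6.95e-14). Egr2, a relative of Egr1, was at a low level of 2.24, 3.74 and 2.75 CPM in the libraries numbered 1, against 7.03, 11.2 and 7.76 CPM in those numbered 2 and 2.48, 4.27 and 6.28 CPM in those numbered 3. Its ranges overlapped across treatment groups but not within one, and its log2 fold change was −1.15 (SE 0.228, adjusted p = 0.00136).

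Members of the list that end the response fell with those that carry it. Zfp36 (chr7:28376784-28380253, minus strand), or tristetraprolin, which binds AU-rich elements and speeds the decay of mRNAs, had 61.9, 57.0 and 60.1 CPM in the libraries numbered 1, against 136, 132 and 128 CPM in those numbered 2 and 107, 116 and 120 CPM in those numbered 3. The groups did not overlap, and its log2 fold change was −1.05 (SE 0.0513, adjusted p = 2.06e-19). Dusp1 (chr17:26505590-26562128, minus strand), a phosphatase that switches off MAP kinases, had 108, 110.3 and 112 CPM in the libraries numbered 1, against 189, 216 and 213 CPM in those numbered 2 and 174, 190.1 and 209 CPM in those numbered 3. Its log2 fold change was −0.85 (SE 0.0374, adjusted p = 6.06e-21), again with no overlap. Btg2, an antiproliferative protein that binds deadenylases, had 25.1, 28.2 and 26.5 CPM in the libraries numbered 1, against 62.9, 69.8 and 62.6 CPM in those numbered 2 and 33.6, 40.1 and 50.8 CPM in those numbered 3 (log2 fold change −0.999, SE 0.119, adjusted p = 1.27e-07).

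Among the other transcription factors of the list, Jun had 10.2, 9.66 and 11.8 CPM in the libraries numbered 1, against 22.9, 21.8 and 17.8 CPM in those numbered 2 and 18.2, 16.1 and 15.9 CPM in those numbered 3. Its groups did not overlap (log2 fold change −0.83, SE 0.0980, adjusted p = 1.2e-07). Junb, a Jun relative at a higher level, fell less, to 327 ± 14.7 CPM (SD, n = 3) in the libraries numbered 1, against 403 ± 17.9 CPM (SD, n = 6) in the others (log2 fold change −0.30, adjusted p = 1.84e-10). Klf6, a Krüppel-like factor, fell by 0.30 on the log2 scale (adjusted p = 1.23e-06) and Myc by 0.28 (adjusted p = 0.000717), and Myc no longer passed without OCY-EV+ANTA-NC 1 (adjusted p = 0.0827). Klf10 had a log2 fold change of −0.18 (adjusted p = 0.0242), of which Veh contributed −0.01, and missed the threshold without OCY-EV+ANTA-NC 1 (adjusted p = 0.388) or OCY-EV+ANTA 1 (0.361) and also without OCY-EV+ANTA-NC 2 (0.0577) or OCY-EV+ANTA 2 (0.07). Ier3, an early gene of stress and survival, was the 1 member that was higher (log2 fold change 0.14, adjusted p = 0.0455), and it missed the threshold without any one of 6 libraries, with adjusted p = 0.411 without OCY-EV+ANTA 1. Not every immediate early gene moved: Fosl1, Fosl2, Srf, Nr4a1, Nr4a2, Dusp5, Dusp6 and Egr3 had log2 fold changes between −0.049 and 0.095, and none passed the test.

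**Figure D1:**
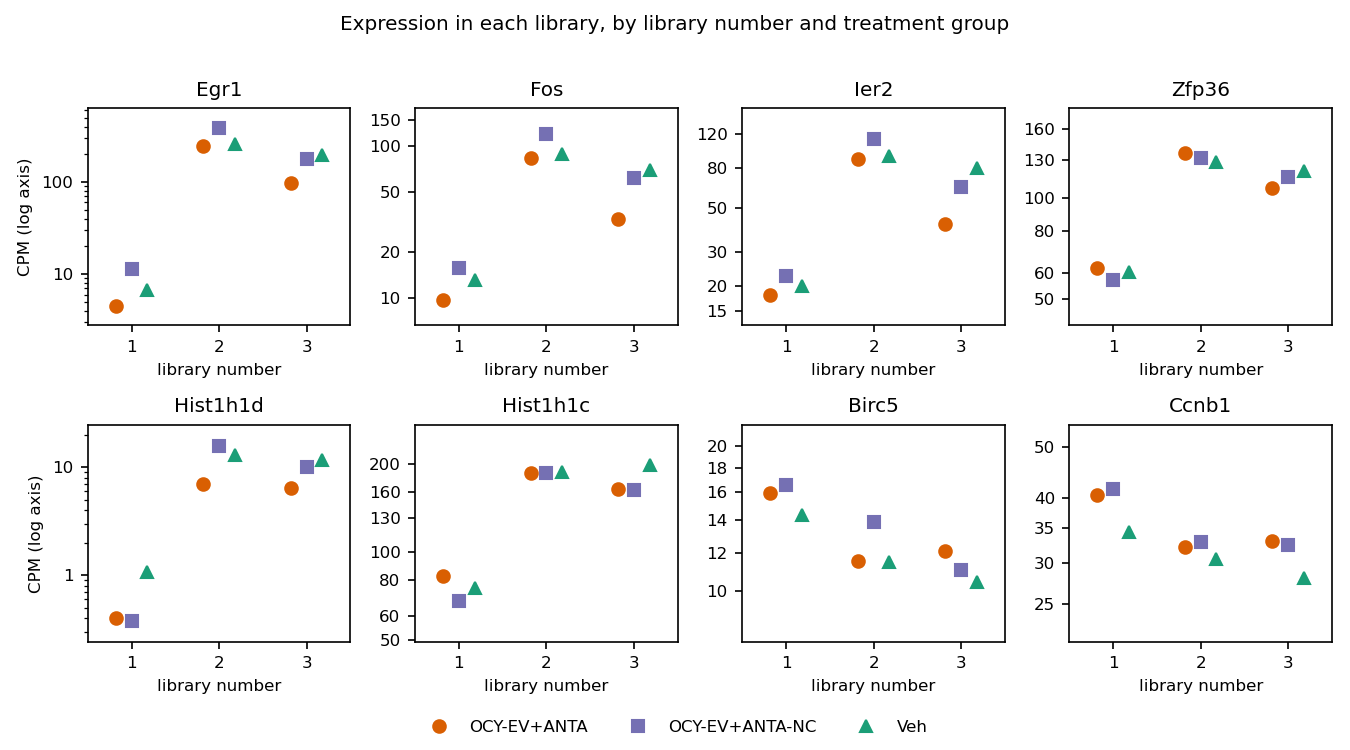
Expression of 8 genes in each library (CPM, log axis) by library number, with the treatment group as colour and marker. Egr1, Fos, Ier2, Zfp36, Hist1h1d and Hist1h1c are lower in every library numbered 1, and Birc5 and Ccnb1 are higher there, by less.

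The libraries numbered 2 and 3 also differed in these genes. That comparison shares the libraries numbered 2 and 3 with the one above, so its values are set beside it with no count of agreement. Numbered 3 against numbered 2 gave 23 called genes of 11685 (0.197%), of which 12 were lower (0.103%) and 11 higher (0.0941%) in the libraries numbered 3. Egr1 was lower in those numbered 3 by 0.92 on the log2 scale (adjusted p = 9.76e-14), Fos by 0.85 (6.74e-12) and Ier2 by 0.67 (3.48e-09). Btg2 was lower by 0.66 (adjusted p = 4.59e-10), Egr2 by 1.004 (0.000179) and Zfp36 by 0.21 (0.00536), whereas Dusp1 had a log2 fold change of −0.11 and Jun of −0.31, neither past the threshold (adjusted p = 0.342 and 0.21). For these genes the libraries numbered 2 were thus the highest, those numbered 3 lay between and those numbered 1 were the lowest, with the distance from 3 to 1 larger than that from 2 to 3 in Egr1, Fos, Ier2 and Zfp36.

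**Figure D2:**
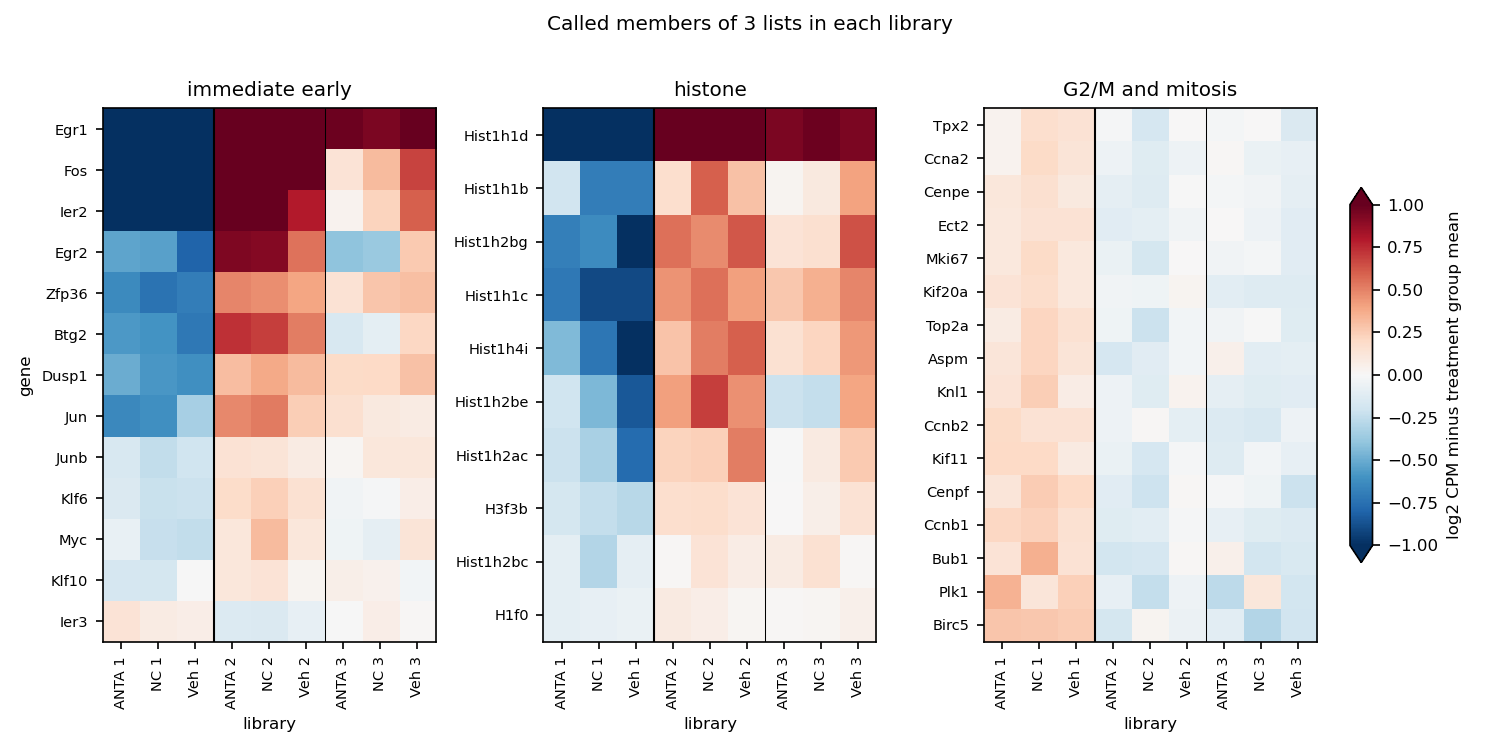
Called members of the immediate early, histone and G2 and mitosis lists (one gene per line) in each of 9 libraries, as log2 CPM (with 0.5 CPM added) minus the mean of the treatment group. The first 3 columns are the libraries numbered 1, below the mean for the immediate early and histone genes except Ier3, and above it for the G2 and mitosis genes.

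Some genes of related signalling lists were lower. Of all genes tested 1.92% were lower, with a median log2 fold change of 0.00080, and in each of the YAP, chemokine, EGF receptor, TGF-beta, stress, p53, glucocorticoid, matrix and hypoxia lists most members did not pass the test. Ccn1 (chr3:145646976-145649981, minus strand), a secreted matricellular protein induced by serum and by YAP, had 42.4, 56.3 and 62.0 CPM in the libraries numbered 1, against 109.5, 165 and 138 CPM in those numbered 2 and 68.4, 119.5 and 123 CPM in those numbered 3. The groups did not overlap and the log2 fold change was −1.16 (SE 0.084, adjusted p = 7.87e-14). Its relative Ccn2 fell by 0.40 on the log2 scale (adjusted p = 1.13e-10), with 23.2% of its exon bases overlapped by a gene on the other strand, whose reads cannot be told apart here. These were the 2 lower genes among 20 tested YAP and TEAD targets. None was higher, 9 had positive fold changes, and the list median was −0.0028.

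Cxcl1, a neutrophil-attracting chemokine, had 5.40, 9.66 and 6.74 CPM in the libraries numbered 1, against 12.6, 21.9 and 16.2 CPM in those numbered 2 and 9.34, 16.9 and 16.03 CPM in those numbered 3. Within each treatment group the library numbered 1 was the lowest, and the log2 fold change was −1.09 (SE 0.104, adjusted p = 3.37e-10). With it the NF-kappaB regulator genes Nfkbiz (log2 fold change −0.29, adjusted p = 0.00162) and Nfkbia (−0.19, 0.00491) made 3 lower genes among 18 tested chemokine and NF-kappaB genes (list median −0.12). Nfkbiz missed the threshold without OCY-EV+ANTA-NC 1 (adjusted p = 0.146) and Nfkbia without OCY-EV+ANTA 1 (0.124). Of 22 EGF receptor ligands and feedback genes (list median −0.034) 4 were lower, among them the ligands Hbegf (log2 fold change −0.31, adjusted p = 6.26e-05), Areg (−0.31, 0.000497) and Ereg (−0.41, 0.00165), of which Ereg missed the threshold without OCY-EV+ANTA-NC 1 (adjusted p = 0.17). In the TGF-beta response list (median −0.055) 4 of 19 were lower, including Id1 (log2 fold change −0.27, adjusted p = 2.13e-07), Smad7 (−0.24, 0.000142) and Id3 (−0.36, 0.00214), genes with early, short-lived mRNAs in many cell types. Id3 missed the threshold without OCY-EV+ANTA-NC 1 (adjusted p = 0.149), and 2 genes of its list were then lower.

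Stress and hormone lists held small falls. Among 36 tested genes of the integrated stress response 5 were lower and 31 had negative fold changes (list median −0.070). Ppp1r15a, which helps to dephosphorylate eIF2 alpha and so ends that response, fell to 43.5 ± 3.75 CPM (SD, n = 3) in the libraries numbered 1, against 57.1 ± 3.39 CPM (SD, n = 6) in those numbered 2 and 3 (log2 fold change −0.39, adjusted p = 7.35e-07). Among 23 p53 targets (list median −0.056) 5 were lower, with Plk2, a polo-like kinase induced by p53 and serum, at 185 ± 5.59 CPM (SD, n = 3) in the libraries numbered 1, against 230 ± 16.9 CPM (SD, n = 6) in the others (log2 fold change −0.31, adjusted p = 6.4e-08). Of 20 glucocorticoid response genes (list median −0.068) 5 were lower, among them Sgk1, a kinase that regulates ion transport, which had 1376, 1334 and 1400 CPM in the libraries numbered 1, against 1591, 1587 and 1630 CPM in those numbered 2 and 1566, 1584 and 1671 CPM in those numbered 3. Sgk1 did not overlap between the groups (log2 fold change −0.23, adjusted p = 4.58e-10). Without a single library, 1 to 8 genes were lower in the stress response list (1 without OCY-EV+ANTA-NC 1, and 2 without Veh 3, OCY-EV+ANTA 1 or OCY-EV+ANTA 2). Among the p53 targets 1 to 6 were, with 1 left without OCY-EV+ANTA-NC 1 or OCY-EV+ANTA 1. In the glucocorticoid list 2 to 5 were, with 2 left without Veh 3 or OCY-EV+ANTA 2. Some genes stand on more than one of these lists, so their counts are not independent.

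Matrix, hypoxia and secretory lists held further small falls. Of 29 tested genes of collagen, laminin and matrix (list median −0.024) 5 were lower and none higher, among them the laminin chains Lama5 (log2 fold change −0.15, adjusted p = 0.00205) and Lamb2 (−0.12, 0.041) and the collagen prolyl hydroxylase P4ha2 (−0.20, 1.4e-05). P4ha2 also stands among 25 hypoxia and HIF targets (list median −0.039), of which 4 were lower, with Vegfa, the endothelial growth factor, at a log2 fold change of −0.10 (adjusted p = 0.0307). Without OCY-EV+ANTA-NC 1 each of these lists had 1 lower gene, and the matrix list had 2 without Veh 3 or OCY-EV+ANTA-NC 3. Lama5 (adjusted p = 0.122), Lamb2 (0.262) and Vegfa (0.258) missed the threshold without OCY-EV+ANTA-NC 1, and Lamb2 and Vegfa also without several other single libraries. Among 22 endoplasmic reticulum chaperone genes 3 were lower, Herpud1 (log2 fold change −0.15, adjusted p = 0.00111), Dnajb9 (−0.19, 0.0262) and Sel1l (−0.12, 0.049), and 2 were higher, the chaperone Calr (0.11, 0.00452) and the isomerase Pdia6 (0.10, 0.0329), so that list had no common direction. Without OCY-EV+ANTA-NC 1 it had 1 lower gene and none higher, and without OCY-EV+ANTA 1 it had 1 higher gene and none lower.

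**Figure D3:**
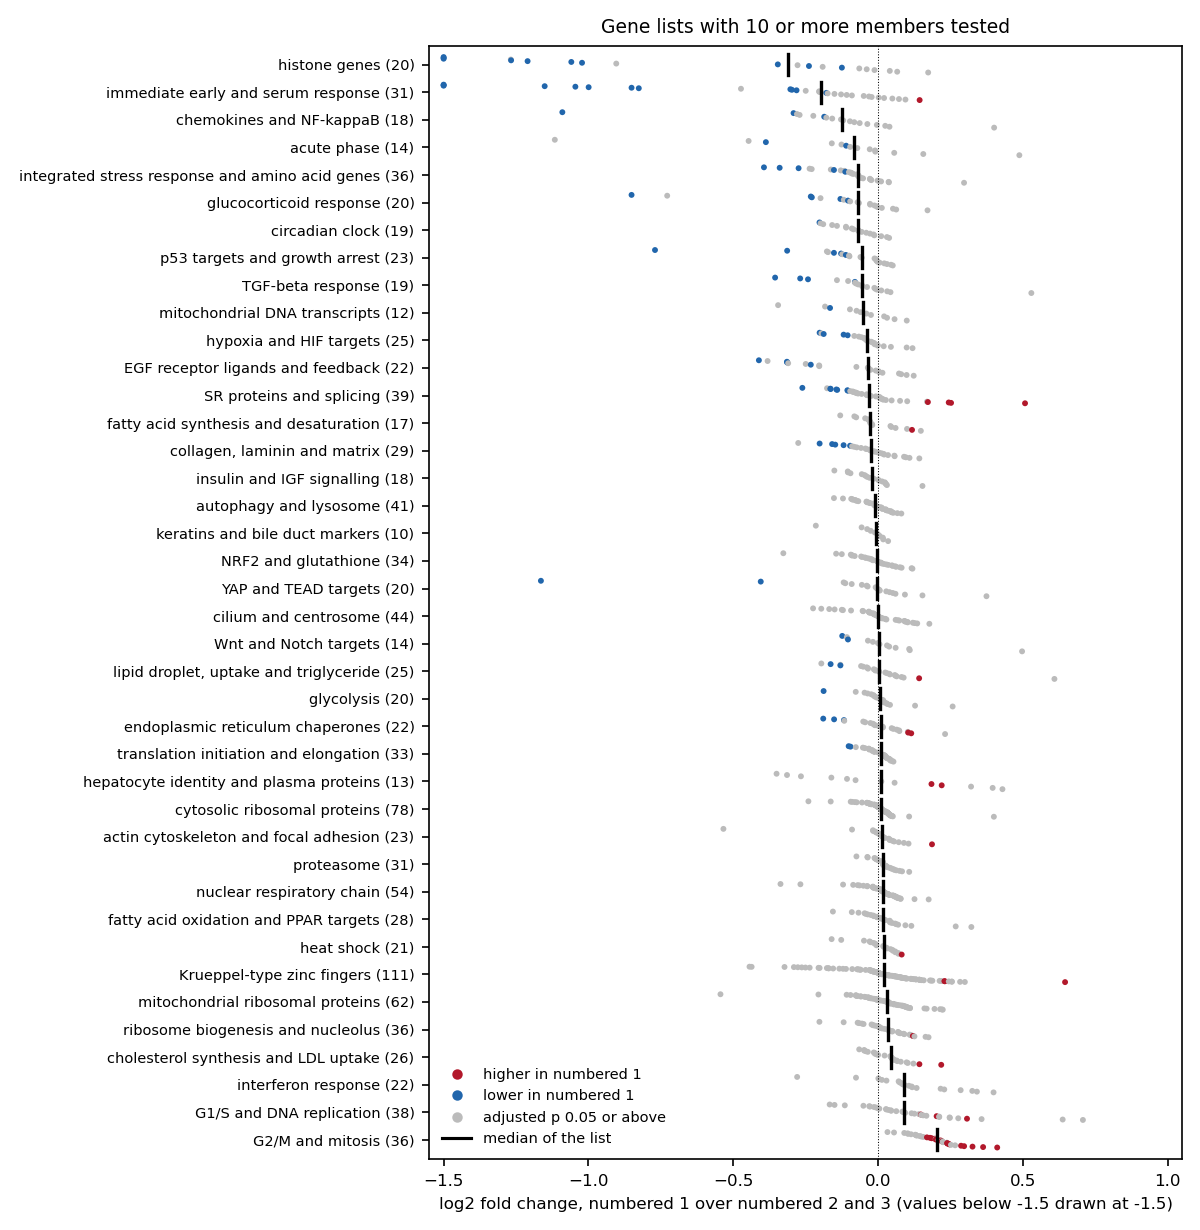
Log2 fold change of every tested member (one point each) of the gene lists with at least 10 members tested, numbered 1 over numbered 2 and 3, with the number tested in brackets and a black mark at the median of each list. Red points passed the test as higher, blue points as lower, and values below −1.5 are drawn at −1.5. The members of the G2 and mitosis list all lie above 0.

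Histone genes were lower in the libraries numbered 1. Whether the libraries were made by poly(A) selection or by rRNA depletion, which bears on mRNAs without a poly(A) tail, is not given in the sources used here, and its part in these changes was not tested. On this list 30 genes were named, 20 were tested and 10 were lower (50%, against 1.92% of all genes tested). None was higher, and the median log2 fold change was −0.31. Taken by locus, the files hold 68 genes of the Hist clusters, of which 20 passed the filter on low counts. All 20 had negative fold changes and 8 were lower, whereas of 7 tested histone genes outside the clusters 2 were lower and the median log2 fold change was −0.012. Members of one histone class are near-identical copies, so counts of single genes are uncertain. The cluster genes that failed the filter have no value here. A cluster gene near the floor in the libraries numbered 1 could pass the filter through the other libraries alone, as Hist1h1d and Hist1h1b did (below). The shared direction of the 20 is therefore not independent of the filter, and the part of the filter in it was not tested.

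Hist1h1d (chr13:23553262-23560686, plus strand), a linker histone gene, changed most. It had 0.402, 0.380 and 1.07 CPM in the libraries numbered 1, against 6.97, 15.7 and 12.9 CPM in those numbered 2 and 6.42, 9.92 and 11.7 CPM in those numbered 3. The libraries numbered 1 were near 0 and did not overlap the others, and the log2 fold change was −4.10 (SE 0.215, adjusted p = 1.71e-18). At these levels Hist1h1d could meet the filter on low counts only through the libraries numbered 2 or 3. Its call is therefore not independent of the filter and adds no support to the shared direction. Hist1h1c (chr13:23738808-23740367, plus strand), the linker histone gene that many non-dividing cells also express, had 82.6, 67.5 and 74.9 CPM in the libraries numbered 1, against 186, 186 and 187 CPM in those numbered 2 and 164, 162 and 198 CPM in those numbered 3. Its log2 fold change was −1.27 (SE 0.0462), with the smallest adjusted p among the histone genes, 9.27e-24. Numbered 3 against numbered 2 did not pass for either gene (Hist1h1d log2 fold change −0.33, adjusted p = 0.546, and Hist1h1c −0.10, adjusted p = 0.693).

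Core histone genes were at lower levels. Hist1h2bg, a histone H2B gene, had 1.55, 2.01 and 0.955 CPM in the libraries numbered 1, against 4.34, 4.86 and 4.85 CPM in those numbered 2 and 3.13, 3.81 and 4.90 CPM in those numbered 3 (log2 fold change −1.51, SE 0.203, adjusted p = 1.64e-06). Hist1h4i, a histone H4 gene, had 3.74, 2.88 and 2.47 CPM in the libraries numbered 1, against 6.50, 7.43 and 8.68 CPM in those numbered 2 and 5.88, 5.95 and 7.67 CPM in those numbered 3 (log2 fold change −1.21, SE 0.152, adjusted p = 3.7e-07). Neither gene overlapped between the groups. Hist1h1b was near the floor, at 0.0751 ± 0.0345 CPM (SD, n = 3) in the libraries numbered 1, against 0.519 ± 0.243 CPM (SD, n = 6) in the others. It could meet the filter on low counts only through the libraries numbered 2 or 3, so its call adds no support. The adjusted p of Hist1h1b was 0.0112, and it missed the threshold without Veh 1 (0.0971) or OCY-EV+ANTA-NC 1 (0.228). Hist1h2be (adjusted p = 0.048), Hist1h2ac (0.0442) and Hist1h2bc (0.0483) passed narrowly and missed the threshold without most single libraries, and the list kept 6 lower genes without OCY-EV+ANTA-NC 1.

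Of the histones outside the clusters, H3f3b, which encodes the replacement histone H3.3, had 526.4, 532 and 509.6 CPM in the libraries numbered 1, against 669, 706 and 680.4 CPM in those numbered 2 and 597, 654 and 683 CPM in those numbered 3. There was no overlap, and its log2 fold change was −0.35 (SE 0.0300, adjusted p = 2.44e-11). H3f3a, which encodes the same protein, had a log2 fold change of 0.066 (adjusted p = 0.227). H1f0, the replacement linker histone, fell by 0.12 on the log2 scale (adjusted p = 0.000727).

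Genes of G2 and mitosis were higher in the libraries numbered 1. All 36 members of the list were tested, and 16 were higher and none lower (44.4% called, against 2.8% of all genes). The median log2 fold change was 0.20. All 36 had positive fold changes, and in 28 of them the library numbered 1 was the highest in every treatment group, an order that 7.22% of all genes tested had. Summed over the list, OCY-EV+ANTA 1 had 1553 CPM, against 1385 and 1420 CPM in OCY-EV+ANTA 2 and 3. OCY-EV+ANTA-NC 1 had 1617 CPM, against 1301 and 1390 CPM in OCY-EV+ANTA-NC 2 and 3, and Veh 1 had 1334 CPM, against 1216 and 1159 CPM in Veh 2 and 3. The calls rested largely on 1 library: without OCY-EV+ANTA-NC 1, 3 members were higher, and without any other library 11 to 17 were.

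Ccnb1 (chr13:100778650-100786570, minus strand), cyclin B1, the partner of Cdk1 at entry into mitosis, had 40.5, 41.6 and 34.3 CPM in the libraries numbered 1, against 32.2, 32.8 and 30.5 CPM in those numbered 2 and 33.0, 32.5 and 28.02 CPM in those numbered 3. Its libraries numbered 1 all lay above the other 6 (log2 fold change 0.30, SE 0.0513, adjusted p = 0.000192), and the call stood without each library in turn. Top2a, the topoisomerase that untangles sister chromatids, had 220.2, 231 and 190.3 CPM in the libraries numbered 1, against 202, 172 and 168 CPM in those numbered 2 and 204, 199 and 157 CPM in those numbered 3. Here the ranges overlapped between treatment groups, but the library numbered 1 was the highest of each (log2 fold change 0.22, adjusted p = 6.29e-05), and the call stood without each library in turn (adjusted p = 0.0466 without OCY-EV+ANTA-NC 1).

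Birc5, survivin, a subunit of the chromosomal passenger complex, had the largest change of the list, with 15.98, 16.6 and 14.3 CPM in the libraries numbered 1, against 11.5, 13.9 and 11.5 CPM in those numbered 2 and 12.1, 11.0 and 10.4 CPM in those numbered 3. Every library numbered 1 was above the 6 others (log2 fold change 0.41, SE 0.0829, adjusted p = 0.00165), and the adjusted p was 0.0577 without OCY-EV+ANTA-NC 1. The spindle checkpoint kinase gene Bub1 (log2 fold change 0.33, adjusted p = 0.000982) had an adjusted p of 0.264 without that library, the centromere protein gene Cenpf (0.29, 0.000202) one of 0.0577 and the proliferation marker Mki67 (0.20, 0.000272) one of 0.101. Plk1, the polo-like kinase of mitosis, rose by a log2 fold change of 0.36 (adjusted p = 0.0152) and missed the threshold without OCY-EV+ANTA 1 (0.341) or Veh 1 (0.0627). Cdk1, the kinase partner of cyclin B, had a log2 fold change of 0.091 (adjusted p = 0.404).

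Outside that list, 2 genes of condensin subunits were among the largest rises. Ncapg (chr5:45669919-45700546, plus strand), a subunit of condensin I, had 29.2, 28.3 and 21.7 CPM in the libraries numbered 1, against 20.9, 22.5 and 16.3 CPM in those numbered 2 and 19.97, 20.6 and 17.1 CPM in those numbered 3. The library numbered 1 was the highest of each treatment group (log2 fold change 0.43, SE 0.0625, adjusted p = 8.55e-06), and the call stood without each library. Smc2, the core ATPase of both condensins, rose by a log2 fold change of 0.33 (adjusted p = 0.000207), with an adjusted p of 0.0673 without OCY-EV+ANTA-NC 1. Of 38 genes of G1/S and DNA replication 3 were higher (7.89%, against 0.881% of all genes), with a list median of 0.089. They were the helicase subunits Mcm6 (log2 fold change 0.20, adjusted p = 0.0389) and Mcm7 (0.15, 0.0468) and the primase subunit Prim2 (0.31, 0.0403). None of these was past the threshold without Veh 3, OCY-EV+ANTA-NC 1, OCY-EV+ANTA-NC 2 or OCY-EV+ANTA 2.

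**Figure D4:**
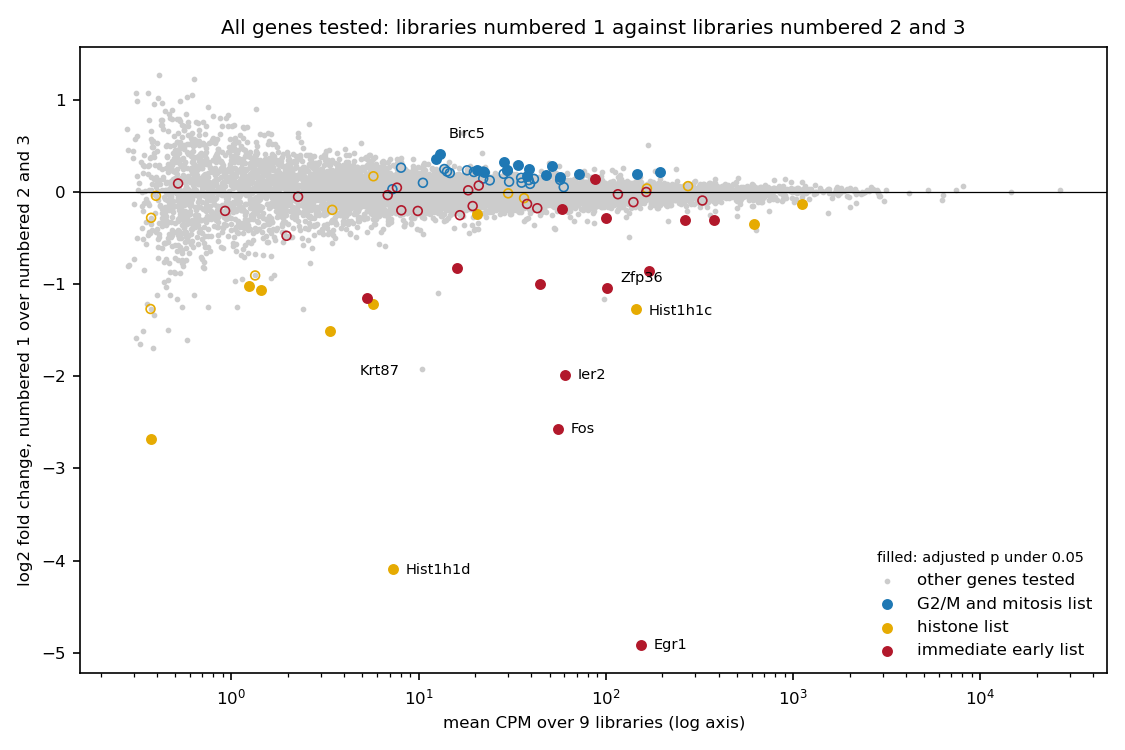
Mean level over 9 libraries (CPM, log axis) against the log2 fold change of numbered 1 over numbered 2 and 3, for all 11685 genes tested in grey and the members of 3 lists in colour, filled where the adjusted p was under 0.05. Egr1 at −4.92 and Hist1h1d at −4.10 lie farthest below 0, while the G2 and mitosis genes form a band just above it.

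Splicing genes moved in both directions. Of 39 tested, 4 were higher and 7 lower (28.2% called, against 2.8% of all genes), and the median log2 fold change was −0.031. Clk1 (chr1:58410189-58424066, minus strand), a kinase that phosphorylates SR splicing proteins, had 177, 255 and 195 CPM in the libraries numbered 1, against 137, 142 and 126 CPM in those numbered 2 and 167, 174 and 132 CPM in those numbered 3. All 3 libraries numbered 1 were above the 6 others (log2 fold change 0.51, SE 0.0529, adjusted p = 3.89e-09), by 0.21 in OCY-EV+ANTA, 0.69 in OCY-EV+ANTA-NC and 0.60 in Veh. Its relative Clk4 (log2 fold change 0.24, adjusted p = 0.000192) and the U1-associated Luc7l3 (0.25, 0.000727) were also higher. Without OCY-EV+ANTA-NC 1, Luc7l3 missed the threshold (adjusted p = 0.112). Among the lower genes, Srrm2, a scaffold of nuclear speckles, fell by 0.26 on the log2 scale (adjusted p = 2.13e-07) and Hnrnph1, an RNA-binding regulator of splicing, by 0.16 (adjusted p = 9.59e-05). Without OCY-EV+ANTA-NC 1 or OCY-EV+ANTA 1, 3 genes of the list were lower. The libraries numbered 2 and 3 differed here too, with 4 members called in numbered 3 against numbered 2 and none of them lower. Clk1 was higher in those numbered 3 by 0.22 on the log2 scale (adjusted p = 0.0475), Luc7l3 by 0.22 (0.00356) and Srrm2 by 0.13 (0.016).

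The largest rise under the naming rule, which asks for a mean of at least 2 CPM, was that of Zfp866 (chr8:69761326-69791178, minus strand). It was 1 of 3 higher genes among 111 tested Krüppel-type zinc finger genes (2.7% called, against 2.8% of all genes). Zfp866 had 23.7, 20.9 and 23.8 CPM in the libraries numbered 1, against 11.9, 14.2 and 15.1 CPM in those numbered 2 and 17.3, 14.9 and 13.8 CPM in those numbered 3. The groups did not overlap (log2 fold change 0.65, SE 0.0795, adjusted p = 2.45e-07). Cox17, a copper chaperone for cytochrome c oxidase, had a log2 fold change of 0.53 (adjusted p = 0.0152), with an adjusted p of 0.459 without OCY-EV+ANTA-NC 1 and 0.0585 without OCY-EV+ANTA 1. Mrc1, the mannose receptor of macrophages and sinusoidal endothelium, had 84.0, 44.8 and 43.4 CPM in the libraries numbered 1, against 57.3, 43.2 and 36.4 CPM in those numbered 2 and 60.8, 36.4 and 38.1 CPM in those numbered 3. Most of that rise lay in OCY-EV+ANTA 1 (log2 fold change 0.32, adjusted p = 0.000143), and the adjusted p was 0.134 without it. Of 10 macrophage markers 2 (Clec4f and C1qb) had 0 counts in every library, Adgre1 had at most 1 count and Ptprc at most 5, while Cd14, which hepatocytes also express, read 25.1 to 26.0 CPM in the libraries numbered 1, against 23.3 to 28.3 CPM in the others.

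Among the falls, Krt87, a hair-type keratin gene, had 3.28, 4.83 and 2.75 CPM in the libraries numbered 1, against 10.7, 21.4 and 16.4 CPM in those numbered 2 and 7.99, 11.4 and 15.1 CPM in those numbered 3. No library overlapped between the groups, and the log2 fold change was −1.92 (SE 0.162, adjusted p = 1.04e-11). Gpr137c fell to 1.24 ± 0.380 CPM (SD, n = 3) in the libraries numbered 1, against 2.99 ± 0.729 CPM (SD, n = 6) in the others (log2 fold change −1.27, adjusted p = 0.000331). Cd68, a lysosomal membrane protein used as a macrophage marker, was lower (log2 fold change −0.45, adjusted p = 0.00562) and missed the threshold without OCY-EV+ANTA-NC 1 (0.199) or OCY-EV+ANTA 1 (0.143). The summed level of the macrophage markers was 33.6 to 36.5 CPM in the libraries numbered 1, against 33.8 to 42.2 CPM in the others.

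**Figure D5:**
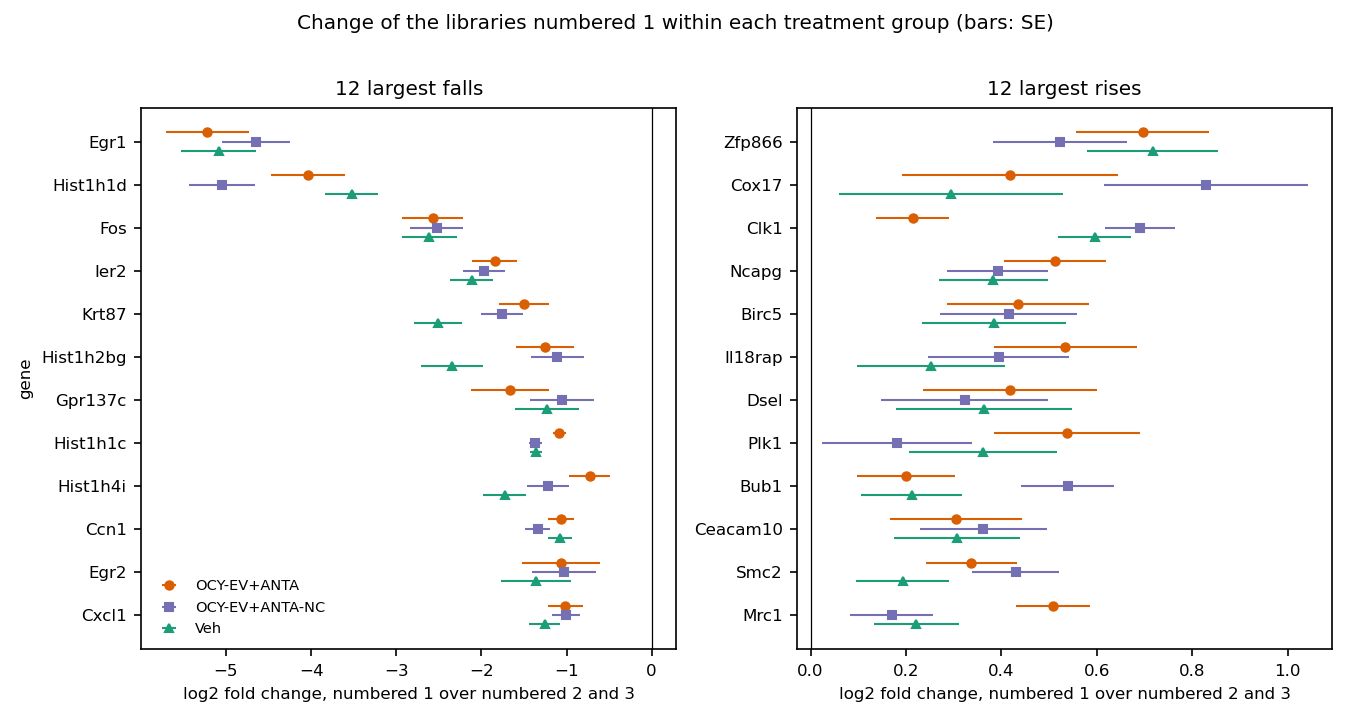
Log2 fold change (with SE) of the library numbered 1 over those numbered 2 and 3 within each treatment group, for the 12 largest falls and the 12 largest rises under the naming rule. In all 24 genes the 3 treatment groups lie on the same side of 0, which the rule requires.

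Hepatocyte and metabolic genes moved little. Of 13 tested genes of hepatocyte identity and plasma proteins 2 were higher, the apolipoprotein gene Apob (log2 fold change 0.22, adjusted p = 0.000727) and the transcription factor gene Hnf4a (0.18, 0.019), and both missed the threshold without OCY-EV+ANTA-NC 1 (0.104 and 0.164) or OCY-EV+ANTA 1 (0.0647 and 0.512). Hnf4a was also not called without OCY-EV+ANTA 2 (0.0636). Of 26 genes of cholesterol synthesis 2 were higher, the isomerase gene Idi1 (log2 fold change 0.22, adjusted p = 0.000764, and 0.0905 without OCY-EV+ANTA-NC 1) and the acetyltransferase gene Acat2 (0.14, adjusted p = 0.0349). Acat2 missed the threshold without OCY-EV+ANTA-NC 1 (0.34), OCY-EV+ANTA-NC 3 (0.122), OCY-EV+ANTA 1 (0.479) or OCY-EV+ANTA 3 (0.103), its log2 fold change within Veh was 0.0087, and without OCY-EV+ANTA-NC 1 the list held no call. No member was called among 28 tested genes of fatty acid oxidation, 78 of cytosolic ribosomal proteins, 54 of the nuclear respiratory chain, 62 of mitochondrial ribosomal proteins, 31 of the proteasome, 41 of autophagy and lysosome, 34 of the NRF2 response or 22 of the interferon response. Of all genes tested 2.8% were called, a share that leaves few calls for lists of these sizes. In the interferon list 20 of the 22 had positive fold changes, with a list median of 0.089. In all, 31 of 46 lists held a called gene. Of the 327 called genes 113 stood on a list. The share of all tested genes that stood on a list was not computed, so this count is not read as a result.

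The called genes differed from all tested genes in base composition and structure. GC content of the transcript had a median of 45.4% among the higher genes and 52.9% among the lower genes, against 49.6% among all genes tested. A single exon block made up 8.48% of the lower genes and 1.94% of the higher ones, against 2.37% of all, and the median span on the chromosome was 15 kb for the lower and 27.3 kb for the higher genes, against 24 kb for all. The AU-rich letters TATTTAT stood in the 3′ untranslated region of 38.2% of the lower and 32% of the higher genes, against 29.8% of all. Across 11664 genes, which are not independent replicates, the Spearman correlation of log2 fold change with GC content was −0.146. Within libraries, the correlation of each gene's deviation from its treatment group with GC content was −0.0178 in OCY-EV+ANTA 1, −0.138 in OCY-EV+ANTA-NC 1 and −0.140 in Veh 1, against −0.0184 to 0.167 in the libraries numbered 2 and 3. With a GC and length trend removed, 375 genes were called, 115 higher and 260 lower, and the part of base composition in single genes was not tested.

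Total counts per library ran from 17298814 to 21737643, with those numbered 1 at 17554451, 18171471 and 17825578. Per gene, the chi-square between libraries of one treatment group, where sampling noise alone gives about 1, was 3.31 to 4.49 for pairs with a library numbered 1, against 2.18 to 2.82 for pairs of those numbered 2 and 3, so no library repeated another within sampling noise. Mitochondrial transcripts took 3.91 to 3.95% of counts in the libraries numbered 1, against 3.77 to 4.07% in the others. Hnf4a, a hepatocyte factor, read 59.7 to 66.1 CPM in the libraries numbered 1, against 49.0 to 60.9 CPM in the others, and the transgene family gene Tgfa 82.9 to 88.8 CPM, against 83.4 to 91.5 CPM. Albumin was low (1.73 to 5.40 CPM in the libraries numbered 1, against 3.72 to 7.21 CPM), the hepatocyte cytochrome gene Cyp2e1 had at most 1 count, and Krt19, a keratin of bile duct cells, reached 2324 to 2865 CPM in the libraries numbered 1, against 2376 to 2680 CPM. The osteocyte genes Sost and Dmp1 had 0 counts in every library, and no tested member of the osteocyte, stellate cell or endothelial marker lists was called.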

How the data were processed

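RNA from 9 AML12 libraries was sequenced. The authors deposited, per library, gene counts in 1 table and FPKM in another. HTSeq counted reads on mm10, per the submitters' processing notes. Aligner, annotation, versions, library selection and strand setting: not given in the sources used here. Listed were 21959 genes, 16770 with a count in at least 1 library, and 21902 identifiers matched GENCODE M21. The deposited FPKM equalled the counts scaled by the library total and 1 length per gene for all 16770 genes (within 0.001 base).

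Libraries were grouped by the number in their labels. Counts as deposited were filtered with filterByExpr (minimum count 10, minimum total 15), scaled with TMM and fitted with edgeR 4.0.16 (R 4.3.3) as treatment group plus numbered 1 against numbered 2 and 3, with glmQLFTest and Benjamini-Hochberg adjustment over 11685 genes at 0.05. SE is the log2 fold change divided by the root of F. The interaction of number and group, and numbered 3 against 2, were fitted likewise. The model was tested on simulated data. Alternatives used DESeq2 1.42.0, limma 3.58.1 on log2(FPKM + 1), other scaling, no filter, a GC and length trend (loess span 0.5), a replicate block, and left-out libraries and groups.

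The comparison, the members and the 46 gene lists were chosen with earlier results of these data known, after a principal component had placed the libraries numbered 1 apart. The naming rule took called genes averaging 2 CPM or more whose library numbered 1 lay outside both others in every treatment group, left out predicted genes and pseudogenes, and kept the 12 largest rises and the 12 largest falls. From each list it added the called members of smallest adjusted p, at most 4 (or, where none was called, 2 as values), with Alb, Hnf4a and Tgfa as checks. The called genes Btg2, Jun, Junb, Klf6, Klf10, Myc, Ier3, H1f0, Hist1h1b, Hist1h2ac, Hist1h2bc, Hist1h2be, Lamb2, Luc7l3 and Sel1l, those of the closing observations and further uncalled list members were chosen after their values were seen. Some called genes are not reported here by name. Promoter sequences came from RefSeq on GRCm38.p6, 250 bases before the start.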

Additional observations from a re-analysis of the deposited data

Results flagged for a closer look

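In 5 of 11879 genes (0.0421%), the change of the library numbered 1 differed between treatment groups by edgeR's interaction test at an adjusted p under 0.05, and 609 had an unadjusted p under 0.05. Of these, 4 are described. The chromatin remodeller gene Chd9 (adjusted p = 1.19e-05) was high in OCY-EV+ANTA-NC 1, at 216 CPM, against 161 and 165 CPM in OCY-EV+ANTA-NC 2 and 3. Gm8797 (adjusted p = 0.000132) had 1.29 CPM in Veh 1, against 7.02 and 7.67 CPM in Veh 2 and 3. The metallothionein gene Mt1 (adjusted p = 0.000225) had 669 CPM in Veh 1, against 826 and 830.3 CPM in Veh 2 and 3, but 859 CPM in OCY-EV+ANTA 1, against 785 and 809.8 CPM in OCY-EV+ANTA 2 and 3. Gm2026 (adjusted p = 0.034) had 2.81 CPM in Veh 1, against 0.462 and 0.115 CPM in Veh 2 and 3.

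Among the 6 libraries numbered 2 or 3, 1 library stood apart from the rest by Dixon's test in 2 of 123 named genes, where chance gives about 1 in 20. For Id3, a transcription factor inhibitor, it was OCY-EV+ANTA-NC 2, the highest at 24.6 CPM, and for Apob it was OCY-EV+ANTA 2, the lowest at 91.9 CPM. These 6 libraries span all treatment groups and both numbers, so they are not plain replicates. A flag may therefore reflect treatment or number and need not mark a stray library.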

How the results depend on the processing

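The main comparison called 327 genes, 103 higher and 224 lower in the libraries numbered 1. The count moved by over 1.5 times under DESeq2 (177 genes, 54 higher and 123 lower), limma on log2(FPKM + 1) (67, with 20 higher and 47 lower), with no treatment group covariate (23, with 1 higher and 22 lower), against the libraries numbered 2 alone (211 genes, 140 lower), without OCY-EV+ANTA-NC (102, with 26 higher and 76 lower) and without OCY-EV+ANTA (152, with 43 higher and 109 lower). Leaving out 1 library gave 83 to 376 genes, 17 to 143 higher and 66 to 235 lower, with the fewest without OCY-EV+ANTA-NC 1. Apart from the smaller number of libraries in some of these settings, the cause was not tested. No named gene changed sign past the threshold in any of 22 settings. Of 92 called named genes 17 were called in every setting, among them Egr1, Fos, Ier2, Zfp36, Dusp1, Ccn1, Hist1h1d, Hist1h1c and Zfp866. The G2 and mitosis list held 0 to 19 higher genes, with none when the treatment group covariate was left out. Numbered 3 against numbered 2 gave 23 genes, and 7 under DESeq2. Over these settings the median log2 fold change of all genes lay within 0.00413 of 0.

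With the replicate block, 419 genes were called, 146 higher and 273 lower. The numbers are shared as numbers only: the labels give no pairing, and deviations from the group means correlated between same-numbered libraries at 0.15 to 0.23 for number 1, 0.072 to 0.13 for number 2 and 0.020 to 0.080 for number 3.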

Other observations

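Other called genes, chosen after their values were seen, extend the description. Rhob, a small GTPase with a short-lived mRNA, was lower at 105 ± 8.46 CPM (SD, n = 3) in the libraries numbered 1, against 147 ± 10.7 CPM (SD, n = 6) in those numbered 2 and 3 (log2 fold change −0.49, edgeR adjusted p = 1.84e-12). The antiproliferative gene Tob1, a relative of Btg2, fell by 0.34 on the log2 scale (adjusted p = 2.75e-05), and the Zfp36 relatives Zfp36l1 and Zfp36l2 fell by 0.36 (adjusted p = 3.28e-06) and 0.20 (adjusted p = 4.49e-07). For Zfp36l1, 55.9% of the exon bases overlapped a gene on the opposite strand, whose reads cannot be told apart here. Txnip, a thioredoxin-binding protein induced by glucose, fell by 0.83 (adjusted p = 2.08e-06), with −1.20 in OCY-EV+ANTA, −1.13 in OCY-EV+ANTA-NC and −0.20 in Veh.

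Among the higher genes, the calcium-binding or galactoside-binding protein genes S100a11 (log2 fold change 0.13, adjusted p = 0.00127), Lgals1 (0.14, 0.00165) and Anxa1 (0.14, 0.000478) rose by little at high levels, with the library numbered 1 the highest of every treatment group. Without OCY-EV+ANTA-NC 1 none of the 3 passed (adjusted p = 0.106, 0.104 and 0.0629), and without OCY-EV+ANTA 1 neither S100a11 (0.0782) nor Lgals1 (0.0627) did. The largest fitted rise was that of Dnah17, an axonemal dynein gene, at 1.97 ± 0.373 CPM (SD, n = 3) in the libraries numbered 1, against 1.051 ± 0.229 CPM (SD, n = 6) in the others (log2 fold change 0.90, adjusted p = 0.0281). It missed the threshold without Veh 1 (adjusted p = 0.127), Veh 3 (0.0672), OCY-EV+ANTA-NC 1 (0.274), OCY-EV+ANTA-NC 3 (0.0748), OCY-EV+ANTA 1 (0.0613) or OCY-EV+ANTA 2 (0.0522).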
